A study of Mus musculus with 8 samples.

Results

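The genes described here encode 4 subunits of the muscle acetylcholine receptor (Chrna1, Chrnb1, Chrnd and Chrng) and the proteins Musk and Rapsn, which gather that receptor at the endplate, in cultured mouse primary myoblasts. Members are the probe sets whose only annotated gene symbol is one of these 6 names. All 6 were found, each with 1 probe set, among 19938 genes. The probe sets were 10483706 for Chrna1, 10387625 for Chrnb1, 10348150 for Chrnd, 10348166 for Chrng, 10505145 for Musk and 10473783 for Rapsn. RNA was measured on 8 Affymetrix MoGene 1.0 ST arrays, 4 labelled Runx1f/f and 4 labelled WT, numbered 1 to 4 in each label. The cells were satellite cells of C57bl/6 mice aged 2 to 3 weeks, taken from the gastrocnemius muscle and kept in proliferation medium on Matrigel. The labels also call the Runx1f/f cells KO and name no Cre driver. They call the arrays biological replicates and give each its own source number, without saying whether these came from separate animals or cultures. Any p-value measures only the spread between these arrays.

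The muscle acetylcholine receptor is a pentameric cation channel that opens when acetylcholine from the motor nerve binds, and so starts contraction. Fetal and denervated muscle builds it with the gamma subunit, which the epsilon subunit replaces at innervated adult endplates. Its subunit genes are classic targets of the myogenic basic helix-loop-helix factors, which bind E-boxes in their promoters, and synaptic nuclei also use the N-box, an Ets factor site. Agrin from the nerve binds Lrp4, which activates the kinase MuSK, and rapsyn then anchors the receptors in clusters.

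Sequences upstream of the start site are shown for Chrna1, the subunit that forms the main face of the acetylcholine-binding site, and for Chrng and Chrne, the subunits exchanged at the adult endplate. They are the RefSeq sequences of mouse build GRCm38.p6, 250 bases before the start, 5′ to 3′ on the gene's strand. Capitals mark E-boxes (CANNTG, which reads the same on both strands) and, in Chrne, the N-box (CCGGAA, searched on both strands).
Chrna1 (chr2:73580339-73580588, minus strand): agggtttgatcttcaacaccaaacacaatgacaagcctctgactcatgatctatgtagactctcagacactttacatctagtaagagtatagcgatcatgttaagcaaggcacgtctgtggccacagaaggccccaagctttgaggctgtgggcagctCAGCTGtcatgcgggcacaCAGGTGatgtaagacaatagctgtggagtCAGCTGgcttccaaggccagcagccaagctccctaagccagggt
Chrng (chr1:87205561-87205810, plus strand): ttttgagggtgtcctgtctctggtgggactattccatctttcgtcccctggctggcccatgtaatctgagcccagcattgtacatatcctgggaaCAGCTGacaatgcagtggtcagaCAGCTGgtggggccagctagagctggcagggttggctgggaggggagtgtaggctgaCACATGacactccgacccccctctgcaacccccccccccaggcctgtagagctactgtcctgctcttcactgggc
Chrne (chr11:70619195-70619444, minus strand): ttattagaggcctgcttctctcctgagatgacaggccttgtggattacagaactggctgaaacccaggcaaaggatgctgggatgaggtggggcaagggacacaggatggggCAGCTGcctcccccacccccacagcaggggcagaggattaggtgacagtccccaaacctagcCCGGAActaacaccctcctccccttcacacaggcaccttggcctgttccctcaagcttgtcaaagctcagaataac

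Of 7 genes looked up, 5 had a promoter sequence, and Chrnd and Rapsn had none in the table used here. The windows of Chrna1, Chrnb1, Chrng and Musk each held 3 E-boxes, and that of Chrne held 1. Over all 32851 windows of this length, 66.2% held at least 1 E-box, 31.8% at least 2 and 3.84% at least 4. The share with at least 3 was not counted. The palindromic form CAGCTG, a subset of the E-boxes, lay 92 and 44 bases before the start of Chrna1. In Chrng it lay 155 and 132 bases before the start, in Musk 68 bases and in Chrne 138 bases. Of all windows, 13% held this form at least once and 1.26% held it more than once. The N-box matched once among these genes, 76 bases before the start of Chrne, and in 12% of all windows. The letters TGTGGT, a form of the core that Runx proteins bind, were not found in these 5 windows on either strand and were in 14% of all windows. Other forms of that core were not searched. Matches describe letters only, and binding was not measured here.

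**Figure D1:**
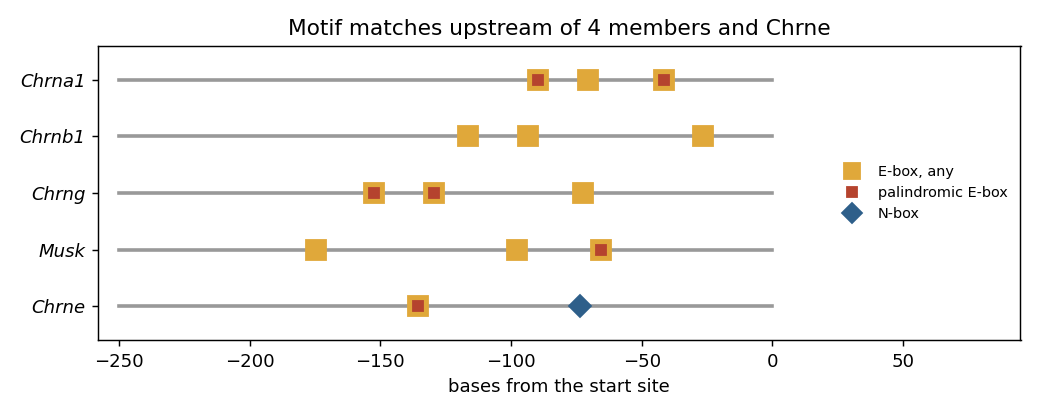
Positions of E-boxes (large squares), their palindromic form (small squares inside them) and the N-box (diamond) in the 250 bases before the start site of 4 members and Chrne; the horizontal axis is the distance from the start in bases. Chrna1, Chrnb1, Chrng and Musk each carry 3 E-boxes, and Chrne carries 1 E-box and the N-box.

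Values are log2 intensities as deposited, after RMA, which corrects the background, puts all arrays on a common distribution and sums up the probes of a set. A difference of 1 is a doubling of signal, and differences of array intensities tend to be smaller than those of the RNA. Probe sets bind with different strength, so no level of one gene is set against that of another. Over all 35399 rows of the table, averages of 3 column sets (WT 1 to 4, Runx1f/f 1 and 2, Runx1f/f 3 and 4) lay within 5e-05 of the 8-column average. The labelled genotypes therefore cannot differ in this table beyond rounding, and Runx1f/f 1 and 2 are mirror images around their mean, as are Runx1f/f 3 and 4. RMA has no step that makes the averages of column sets equal, and the labels record no later step. In the order of the table these sets hold 4, 2 and 2 columns, and the source numbers in the labels also fall into runs of 4, 2 and 2 (139 to 142, 160 and 161, 181 and 189), which cut across the labelled genotypes. Sorted by source number, the labels run WT, Runx1f/f, Runx1f/f, WT, WT, Runx1f/f, Runx1f/f, WT. If the columns stood in that order, those headed 2 and 3 in both labels would hold the Runx1f/f samples and those headed 1 and 4 the WT samples, and the differences between these numbers given below would be between genotypes. Whether each column stands under its own sample's name was not tested, so arrays are called by their labels only. Array medians were 4.39 to 4.41, and the number of arrays limits the precision.

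The comparison of the labelled genotypes gave no difference in any member. In limma's test over all genes, 0 of 6 members and 0% of all genes passed an adjusted p of 0.05, and 0 genes had an unadjusted p under 0.05. Rapsn, for example, averaged 8.86 ± 0.27 in Runx1f/f and 8.86 ± 0.28 in WT arrays (SD, n = 4 each). Each member had an adjusted p of 1, with standard errors from 0.06 (Chrnb1) to 0.17 (Rapsn). Because the means of the labels are equal by the makeup of the table, these values do not measure an effect of Runx1 on the receptor genes. Runx1 itself read 9.98, 9.89, 9.35 and 9.44 in Runx1f/f 2, 3, 1 and 4, against 9.99, 10.27, 9.15 and 9.25 in WT 2, 3, 1 and 4. It thus separated the arrays numbered 2 and 3 from those numbered 1 and 4 in both labels. Its mean could not differ between the labels, because the makeup of the table makes those means equal. Runx1 averaged 10.03 in arrays 2 and 3 and 9.30 in arrays 1 and 4, a difference of 0.74. If the columns stood in the order of the source numbers, Runx1 would thus read higher in the Runx1f/f samples. This was not tested. The labels do not say which part of Runx1 is deleted, and where the probes of this set lie was not checked.

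Levels were next described for the arrays numbered 2 and 3 of both labels (n = 4) and those numbered 1 and 4 (n = 4). This division was chosen with earlier results of the same arrays known, so it is given without a test. Because the columns fall into sets of equal means, n = 4 counts columns, not independent arrays. Each SD given below describes the spread of these columns only. Rapsn differed by 0.44 on the log2 scale, the other 5 members by -0.14 to 0.10, and 0 of 6 differed by more than 1.5-fold in either direction. Of all genes, 2.32% were more than 1.5-fold higher and 0.838% more than 1.5-fold lower in arrays 2 and 3. The median difference of the members was 0.03, beside -0.01 over all genes. In 1 of 6 members, Rapsn, every array numbered 2 or 3 lay above every array numbered 1 or 4, as in 9.87% of all genes. In 1 of 6, Chrna1, every such array lay below, as in 10.5% of all genes. With 6 members, neither count stands out from these shares. In bulk RNA, fewer cells of a type and less RNA per cell cannot be told apart.

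**Figure D2:**
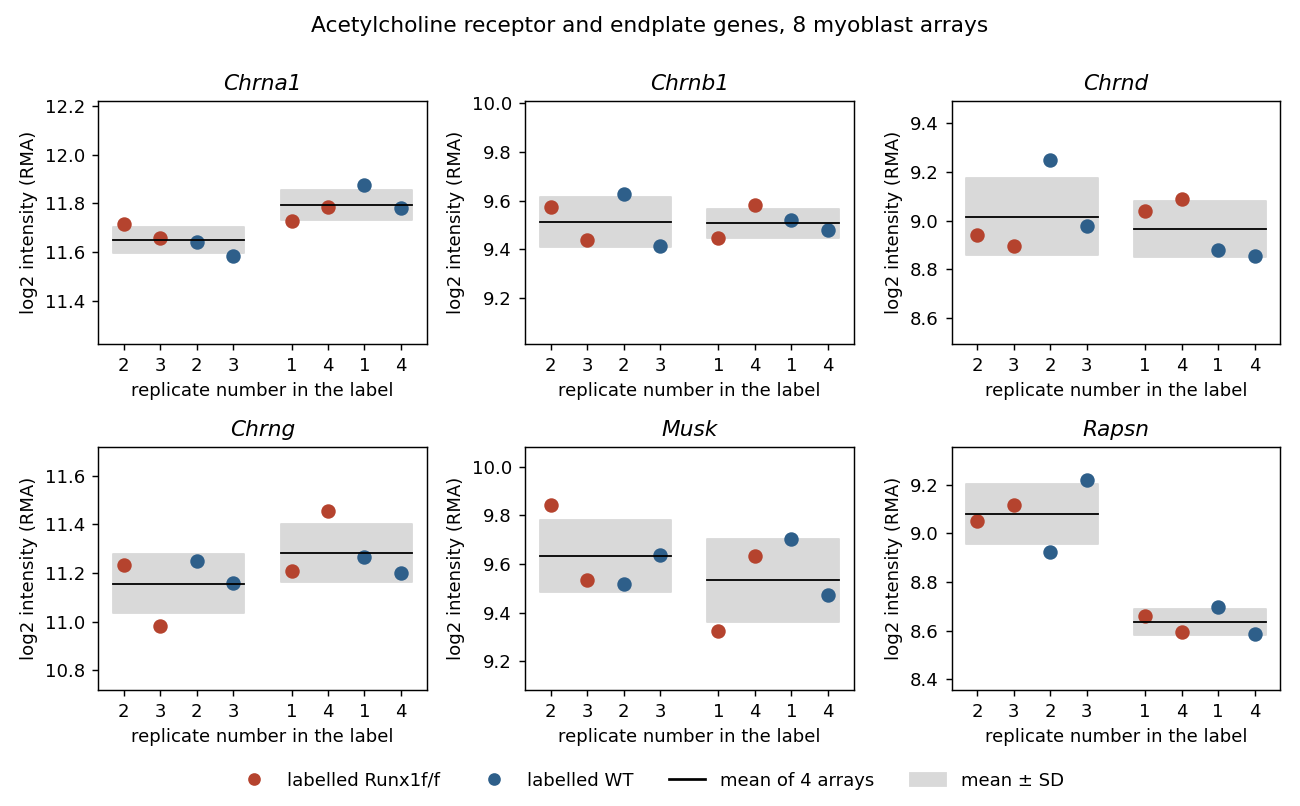
Log2 intensity (vertical axis, spanning 1 unit in every panel) of the 6 members in each array, with arrays numbered 2 and 3 left of those numbered 1 and 4. Colours give the label, lines the mean and grey bands the mean ± SD of 4 arrays; the arrays separate without overlap for Rapsn and, by a gap of 0.01, for Chrna1.

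Among the receptor subunits, Chrna1, the ligand-binding alpha subunit, read 11.71 in Runx1f/f 2, 11.66 in Runx1f/f 3, 11.64 in WT 2 and 11.58 in WT 3. It read 11.73 in Runx1f/f 1, 11.78 in Runx1f/f 4, 11.87 in WT 1 and 11.78 in WT 4. The sets did not overlap, but only 0.01 parted Runx1f/f 2 from Runx1f/f 1. Chrna1 averaged 11.65 ± 0.05 in arrays 2 and 3 and 11.79 ± 0.06 in arrays 1 and 4 (SD, n = 4 each), a difference of -0.14. Of all genes, 24.6% had a larger absolute difference.

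Chrng, the fetal gamma subunit, read 11.23 and 10.98 in Runx1f/f 2 and 3 and 11.25 and 11.16 in WT 2 and 3. It read 11.21 and 11.46 in Runx1f/f 1 and 4 and 11.27 and 11.20 in WT 1 and 4. The sets overlapped, and the lowest and highest array were Runx1f/f 3 and Runx1f/f 4, which differed by -0.47. Without that pair of arrays the other 6 lay within 11.16 to 11.27. The difference over all 8 arrays was -0.13, and over the WT arrays alone it was -0.03.

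Chrnd, the delta subunit, lies next to Chrng on chromosome 1 with 0 genes starting between them in the RefSeq table. It read 8.94 and 8.89 in Runx1f/f 2 and 3 and 9.25 and 8.98 in WT 2 and 3. It read 9.04 and 9.09 in Runx1f/f 1 and 4 and 8.88 and 8.86 in WT 1 and 4. The labels went opposite ways: arrays 2 and 3 lay below arrays 1 and 4 within Runx1f/f by -0.15, and above them within WT by 0.25. Over all 8 arrays the difference was 0.05. Chrnb1, the beta subunit, had the narrowest range of the members, 0.21. It read 9.57 and 9.44 in Runx1f/f 2 and 3 and 9.63 and 9.41 in WT 2 and 3. It read 9.45 and 9.58 in Runx1f/f 1 and 4 and 9.52 and 9.48 in WT 1 and 4. These arrays were intermixed, with a difference of 0.01.

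Of the clustering proteins, Musk, the agrin-responsive receptor kinase, read 9.84 and 9.53 in Runx1f/f 2 and 3 and 9.52 and 9.64 in WT 2 and 3. It read 9.32 and 9.63 in Runx1f/f 1 and 4 and 9.70 and 9.47 in WT 1 and 4. The highest and lowest values belonged to Runx1f/f 2 and Runx1f/f 1, which differed by 0.52, while the WT arrays differed by -0.01 between the numbers. The sets overlapped, with a difference of 0.10 over all 8 arrays.

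Rapsn, the cytoplasmic scaffold that binds the receptor, was the member that separated the arrays most. It read 9.05 in Runx1f/f 2, 9.12 in Runx1f/f 3, 8.93 in WT 2 and 9.22 in WT 3. It read 8.66 in Runx1f/f 1, 8.60 in Runx1f/f 4, 8.70 in WT 1 and 8.59 in WT 4. All arrays numbered 2 and 3 were high and all numbered 1 and 4 low, with a gap of 0.23 between the sets. The low values of Runx1f/f 1 and 4 mirror the high values of Runx1f/f 2 and 3, so they are not separate observations. Its mean was 9.08 ± 0.12 in arrays 2 and 3 and 8.64 ± 0.05 in arrays 1 and 4 (SD, n = 4 each), a difference of 0.44 or 1.36-fold. Of all genes, 5.11% had a larger absolute difference.

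Because the columns fall into 3 sets of equal means, the differences were also taken within each set. Rapsn differed by 0.39 between Runx1f/f 2 and 1, by 0.52 between Runx1f/f 3 and 4, and by 0.43 between WT 2 and 3 and WT 1 and 4. Chrna1 had the same sign in all 3 sets as well, at -0.01, -0.13 and -0.22 in the same order. For Rapsn and Chrna1, the lack of overlap over all 8 arrays fixed that sign in advance. Of all 19938 genes, 3340 were higher and 3911 lower in all 3 sets. The other 4 members changed sign between sets. For Musk the values were 0.52, -0.10 and -0.01, and for Chrnb1 they were 0.13, -0.15 and 0.02.

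**Figure D3:**
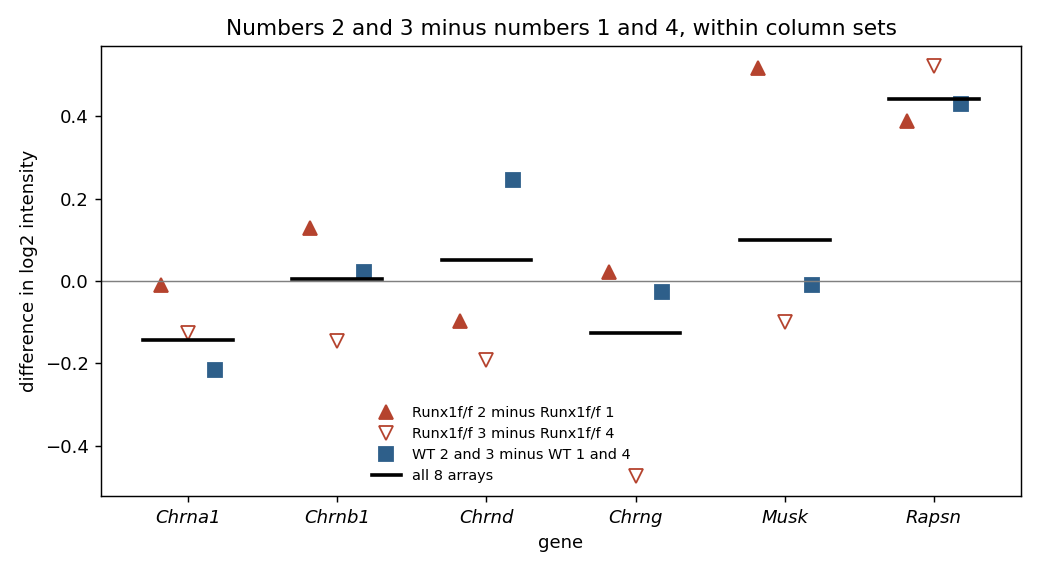
Difference in log2 intensity (vertical axis) between arrays numbered 2 and 3 and arrays numbered 1 and 4 for each member, within each of the 3 column sets with equal means (symbols) and over all 8 arrays (bars). The 3 values of Rapsn lie between 0.39 and 0.52 and those of Chrna1 between -0.22 and -0.01, while the other members have values on both sides of 0.

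Chrne, the epsilon subunit that takes the place of gamma in the adult, read 3.79 and 3.73 in Runx1f/f 2 and 3 and 4.05 and 3.58 in WT 2 and 3. It read 3.89 and 3.95 in Runx1f/f 1 and 4 and 3.83 and 3.90 in WT 1 and 4. The arrays overlapped, with a difference of -0.10. Of the 12 nicotinic subunits outside the members, 0 were higher and 1 (Chrna6) was lower without overlap, where 9.87% and 10.5% of all genes were. The differences of these 12 ran from -0.10 to 0.06. Chrna7, the subunit of homomeric neuronal receptors, averaged 4.22, and Chrna2 read between 3.39 and 3.79. No detection values were used, so it was not measured whether these signals exceed background.

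In the agrin and MuSK pathway, 1 of 10 measured genes was higher and 4 were lower in arrays 2 and 3 without overlap. Of all genes, 9.87% were higher and 10.5% lower in this way. The median difference of the 10 genes was -0.03. Lrp4, the agrin receptor that activates MuSK, read 8.01 and 7.77 in Runx1f/f 2 and 3 and 7.55 and 7.83 in WT 2 and 3. It read 8.35 and 8.59 in Runx1f/f 1 and 4 and 8.79 and 8.55 in WT 1 and 4. Its arrays numbered 2 and 3 were thus all low, by -0.78, the only difference past 1.5-fold in this list. Dok7, the adaptor that MuSK needs, was the gene that read higher, by 0.23, and averaged 8.18 ± 0.12 in arrays 2 and 3 and 7.95 ± 0.06 in arrays 1 and 4. Agrn, which encodes agrin, overlapped and ranged from 4.75 to 5.47. Crk, Dnaja3 and Abl1, which act downstream of MuSK, were lower by -0.16, -0.15 and -0.25. The small GTPases Rac1 and Cdc42 overlapped, with differences of -0.06 and 0.04.

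Among 10 measured genes of the synaptic scaffold and cytoskeleton, 3 (Dtna, Syne1 and Pdzrn3) were higher and 1 (Sntb2) lower without overlap. Their median difference was 0.24. Beside each such count in this paragraph, the shares of all genes were 9.87% higher and 10.5% lower without overlap. Pdzrn3, a ubiquitin ligase reported to bind MuSK, read 5.92 and 5.88 in Runx1f/f 2 and 3 and 6.45 and 5.72 in WT 2 and 3, against 4.61 and 4.65 in Runx1f/f 1 and 4 and 4.34 and 4.55 in WT 1 and 4. That is a difference of 1.45, the widest of the endplate lists. Dtna, the dystrobrevin that binds syntrophins, differed by 0.46. Utrn, the synaptic relative of dystrophin, ranged over 0.10 only, and the cytoskeletal linkers Macf1 and Plec overlapped at 0.26 and 0.10. In the synaptic matrix list, 1 of 7 was higher, the acetylcholinesterase gene Ache, at 4.28 ± 0.17 in arrays 2 and 3 and 3.85 ± 0.19 in arrays 1 and 4 (SD, n = 4 each). Only 0.03 parted the arrays of Ache, and its mean over all arrays, 4.07, lay below the lowest array median of 4.39. The basement membrane genes Nid2 and Lamb2 overlapped, at 0.16 and 0.18. Of 7 genes of the neuregulin and Ets route to endplate transcription, 2 were higher, the receptor genes Erbb3 by 1.14 and Erbb2 by 0.56, and 1 was lower, the Ets factor gene Gabpa by -0.07.

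Of 12 contractile and fusion genes of differentiating muscle, 11 were higher in arrays 2 and 3 without overlap, 0 were lower, and the median difference was 0.58. Over all genes, 9.87% were higher and 10.5% lower without overlap. The myosin gene Myh8 differed by 1.19 and the Z-disc gene Actn2 by 0.91, whereas Mymk, needed for fusion, overlapped at 0.22. The abundant actin genes Acta1 and Actc1 differed by 0.39 and 0.44. The list's median difference was 1.20 between Runx1f/f 2 and 1, 0.25 between Runx1f/f 3 and 4, and 0.53 between WT 2 and 3 and WT 1 and 4. The members' medians in the same sets were 0.08, -0.14 and 0.01. Myog, the E-box factor of terminal differentiation, averaged 11.72 ± 0.19 in arrays 2 and 3 and 10.96 ± 0.21 in arrays 1 and 4 (SD, n = 4 each). Myod1 and Myf5, the factors of proliferating myoblasts, were lower, by -0.26 and -0.89. Myf6, a further myogenic factor, overlapped, at -0.32. Of the 5 genes in the list of myogenic factors and Runx1, 2 were higher and 2 lower without overlap. Their median was -0.26. The part of these differences in the Rapsn value was not tested.

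**Figure D4:**
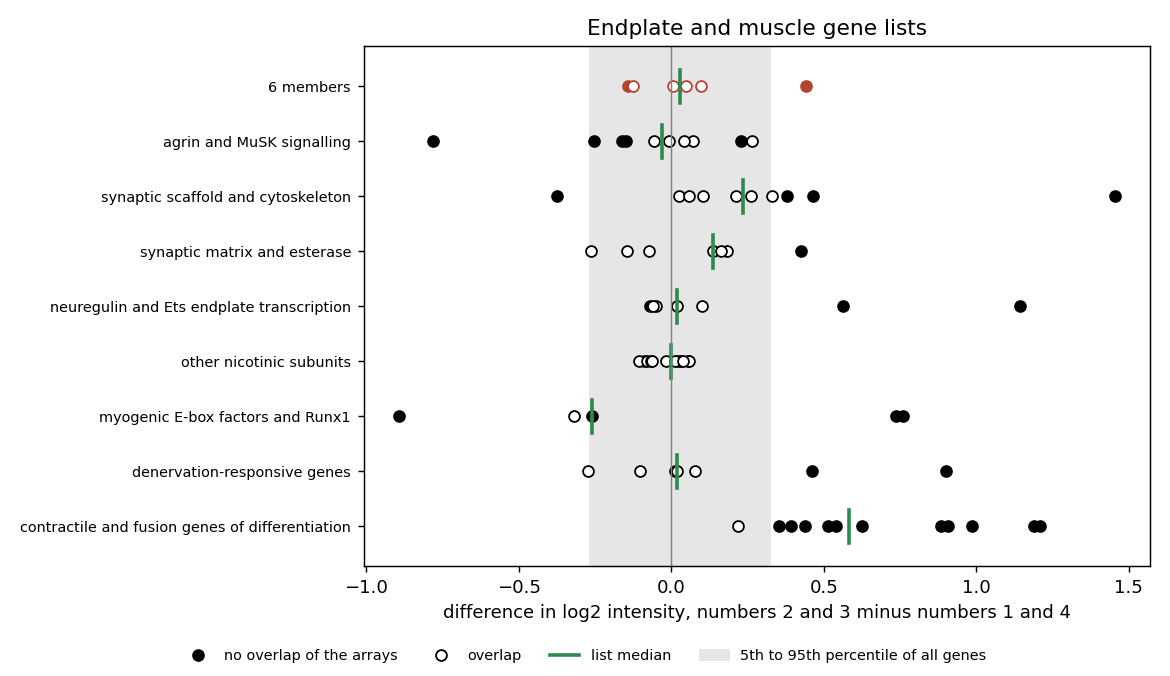
Difference in log2 intensity (horizontal axis) between arrays numbered 2 and 3 and arrays numbered 1 and 4 for the 6 members (top) and 8 gene lists; filled points are genes whose arrays do not overlap, green bars list medians, and the grey band runs from the 5th to the 95th percentile of all genes (-0.27 to 0.32). Rapsn is the only member outside the band, and all 12 contractile and fusion genes lie right of 0.

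Rapsn was also the only member whose SD over the 8 arrays, 0.25, exceeded the 90th percentile of all genes, 0.21. The 3 genes whose profile over the 8 arrays lay nearest to it were Zfp566, Slc9a7 and Mtss2, with root mean square differences of 0.043, 0.043 and 0.045 after each gene's own mean was taken off. The 8 arrays share 3 equal-mean sets, so this likeness is a description only.

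The cultures were described with means of cell type markers, which pool probe sets of unlike level. The 7 myoblast markers averaged 9.47 to 9.57 in arrays 2 and 3 and 9.52 to 9.67 in arrays 1 and 4. Among these, 2 (Des and Cdh15) were higher in arrays 2 and 3 without overlap and 2 (Myod1 and Myf5) lower. Of all genes, 9.87% were higher and 10.5% lower in this way. Myod1 read 11.12 to 11.57. The mean of 4 motor neuron markers was 3.36 to 3.42 in arrays 2 and 3 and 3.46 to 3.47 in arrays 1 and 4, with Isl1 lower in arrays 2 and 3 by -0.28. Chat, Slc18a3 and Mnx1 overlapped, at 0.02, -0.01 and -0.03. Isl1 read only 3.35 to 3.92, below the lowest array median of 4.39. Whether the signals of these markers exceed background was not measured. The mean of 3 measured Schwann cell markers was 3.35 to 3.59 in arrays 2 and 3 and 3.38 to 3.53 in arrays 1 and 4. The 4 fibroblast markers averaged 5.11 to 5.26 in arrays 2 and 3 and 5.00 to 5.22 in arrays 1 and 4. Over all arrays, Col3a1 averaged 8.90, Col1a1 4.62, Dcn 3.50 and Pdgfra 3.49. The 3 smooth muscle markers averaged 6.94 to 7.33 in arrays 2 and 3 and 7.07 to 7.48 in arrays 1 and 4. Acta2 averaged 11.70, Tagln 6.33 and Cnn1 3.57 over all arrays. The 3 leukocyte markers averaged 3.89 to 4.01 in arrays 2 and 3 and 3.89 to 3.97 in arrays 1 and 4, and the 3 endothelial markers 3.45 to 3.48 in arrays 2 and 3 and 3.49 to 3.52 in arrays 1 and 4. The part of the other cells in the differences of Rapsn and Chrna1 was not tested.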

How the data were processed

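The deposited table holds log2 intensities that the authors made with RMA and Partek, per the submitters' processing notes, with versions not given in the sources used here, and no label records a later adjustment. It was the only data file used. Columns were assigned by the accession in their header. Of 23410 annotated rows, 21789 had a single gene symbol in the platform annotation, and the row with the highest mean stood for each gene. For Runx1f/f against WT, limma (version 3.58.1, R 4.3.3) fitted a linear model per gene with moderated variances, two-sided, with Benjamini-Hochberg adjustment over 19938 genes and a threshold of 0.05, and was tested on simulated data. Members, lists and alternatives were chosen with earlier results of these data known. Named besides the members were, per list, the 2 genes with the highest mean and the 2 with the widest range, and 9 genes chosen by role (Chrne, Agrn, Lrp4, Dok7, Ache, Utrn, Myog, Myod1, Runx1). Genes outside this rule were named after their values were seen. Deviations from the label means correlated by 0.39, 0.46, 0.60 and 0.57 for the same numbers 1 to 4, and the number was used as a block in an alternative. The same number of the other label was the best match for only 4 of 8 arrays. Number 1 of each label matched best to number 4 of the other. These correlations thus do not show that the replicates pair by number. The labels give no pairing. Promoters were read from RefSeq (GRCm38.p6) with Python 3.11.15.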

Additional observations from a re-analysis of the deposited data

Results flagged for a closer look

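In 5 of 76 genes checked, every array numbered 2 or 3 moved one way within the Runx1f/f label and the other way within the WT label. None of these differences was tested. The share of all genes that do so was not counted, so it is not known whether 5 of 76 is more than usual. Among the members this was Chrnd, where the difference within Runx1f/f minus that within WT was -0.39. The values were 1.06 for the basement membrane gene Nid2, -0.80 for the laminin gene Lama5, 0.32 for the Ets factor gene Etv5 and -0.16 for the neuronal subunit gene Chrnb3. In 152 sets of 4 arrays of 1 label, 3 values lay far from the others of their label. They were Utrn at 8.46 and Chrna3 at 3.48 in WT 3, and Gabpb1 at 7.38 in WT 4. Chance marks about 5% of such sets of independent values, and the mirrored Runx1f/f columns cannot be marked.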

How the results depend on the processing

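The count of 0 genes called between the labelled genotypes was the same with the replicate number as a block, with the source number runs as a block, after centring or repeated quantile normalization, for the brighter genes, for all single-symbol rows, with a variance trend and without each array. The equal means fix most of these counts, so they say nothing about stability. Under the replicate block, the median member difference, Runx1f/f minus WT, was -2.5e-06, and no other call changed. Without 1 array it ran from -0.024 to 0.023, which reflects the array left out. The 2 members without overlap between the numbers, Rapsn and Chrna1, were the same after centring and repeated quantile normalization. No other member joined them without each array. Leaving out an array cannot make separate sets overlap, so that both stayed says nothing about stability. The median difference of the 6 members between the numbers became -0.14 within Runx1f/f 3 and 4, where Chrng differed by -0.47, and ran from -0.03 to 0.06 without 1 array. Rapsn ran from 0.39 to 0.52 over 14 alternatives and Chrna1 from -0.22 to -0.01. In the alternatives that used part of the arrays, the lack of overlap fixed the sign for both genes. The mirrored columns also make some of these alternatives repeat each other, so their number says nothing about stability. The alternatives for genes with several probe sets were not run, since each member has 1. Signal over background was not used, which limits statements on low signals such as Chrne.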

Other observations

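Of 7 measured genes known to respond to denervation of muscle, as the receptor subunits do, 2 were higher in arrays numbered 2 and 3 without overlap and 0 were lower, where 9.87% and 10.5% of all genes were, with a median difference of 0.02. Trim63, a ubiquitin ligase of muscle atrophy, read 6.72 and 6.40 in Runx1f/f 2 and 3 and 6.51 and 6.52 in WT 2 and 3, against 5.45 and 5.77 in Runx1f/f 1 and 4 and 5.86 and 5.46 in WT 1 and 4. Fbxo32, the other atrophy ligase of the list, overlapped, with a difference of -0.27. Hdac4, a deacetylase that acts on the denervation response, differed by 0.46. The adhesion molecule gene Ncam1 and the stress gene Gadd45a overlapped, at -0.10 and 0.08. These values were looked at with earlier results known and were not tested.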
